A study of Mus musculus with 12 samples.

Results

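The genes described here are 10 transcripts that mark microglia, the resident macrophages of the brain, or that microglia supply to the complement system. They are Aif1, Fcgr3, Cx3cr1, P2ry12, Tmem119, Csf1r, Trem2 and the C1q chains C1qa, C1qb and C1qc, and they were chosen by symbol, as 10 of 23256 genes in the expression table. Aif1 and Fcgr3 were picked because earlier results of these data showed them higher in 1 group, so their difference between the groups is given as a description with no test. The other 8 were taken as standard microglial genes. The study measured poly-A RNA by stranded sequencing in the paraventricular nucleus (PVN) of the hypothalamus, the centre that starts the hormonal stress response. Zygotes from C57/Bl6:129S6/SvEvTac hybrid mice had been microinjected and carried to term by CD1 dams, and the animals were adult males of 18 to 20 weeks. The miR group of 6 mice came from zygotes given 9 microRNA mimics together (miR-698, miR-375, miR-204, miR-32, miR-29c, the pair miR-30c and miR-30a, and the arms miR-532-3p and miR-193-5p), at 1 ng/µL in all and 0.11 ng/µL each. The PBS group of 6 mice came from zygotes given phosphate-buffered saline. The PVN was punched with a 1.0 mm needle from 2 slices of 300 µm, so that each library is bulk tissue with neurons, glia and vessels. Libraries are named by group and replicate number, miR 1 to 6 and PBS 7 to 12. The labels name no litters, and the p-values measure only the spread between these samples.

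Microglia enter the brain early in development and renew themselves there. Csf1r, the receptor for colony-stimulating factor 1 and interleukin 34, carries the signal on which they depend to survive. P2ry12, a purine receptor, and Cx3cr1, the receptor for fractalkine released by neurons, are surface receptors with which they sense their surroundings, and Tmem119 is a membrane protein used to tell them from blood macrophages. Aif1 encodes IBA1, an actin-binding protein stained to count them, and Fcgr3 encodes CD16, a receptor for the constant part of antibodies. Trem2 is a lipid receptor that signals through the adaptor Tyrobp. C1q, the first component of the classical complement pathway, is assembled from A, B and C chains and is made in the brain mainly by microglia.

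The transcription factor PU.1, encoded by Spi1, is the main regulator of the myeloid programme and binds purine-rich DNA. RefSeq promoter windows on build GRCm38.p6, each 250 bases before to 50 bases after a gene's start, were matched to 7 of the 10 genes and searched on both strands for a PU.1 core, GAGGAAG, and for the composite site of PU.1 with an interferon regulatory factor, which reads GGAA, 2 free bases and GAAA. Of the windows printed here, Fcgr3, C1qc and Trem2 held the PU.1 core, and Aif1 and C1qb did not. Each is written 5′ to 3′ on the gene's strand, in lower case, and capitals mark the core, which lies on the opposite strand in each and therefore reads CTTCCTC. They span chr1:171059354-171059653 (minus strand, Fcgr3), chr4:136892865-136893164 (minus strand, C1qc), chr17:48346151-48346450 (plus strand, Trem2), chr17:35176003-35176302 (minus strand, Aif1) and chr4:136886151-136886450 (minus strand, C1qb).
Fcgr3: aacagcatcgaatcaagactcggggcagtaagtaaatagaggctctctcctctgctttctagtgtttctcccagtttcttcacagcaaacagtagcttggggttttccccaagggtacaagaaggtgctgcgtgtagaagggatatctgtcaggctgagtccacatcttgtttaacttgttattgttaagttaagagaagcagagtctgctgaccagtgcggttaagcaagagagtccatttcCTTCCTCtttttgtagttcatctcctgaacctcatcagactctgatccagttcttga
C1qc: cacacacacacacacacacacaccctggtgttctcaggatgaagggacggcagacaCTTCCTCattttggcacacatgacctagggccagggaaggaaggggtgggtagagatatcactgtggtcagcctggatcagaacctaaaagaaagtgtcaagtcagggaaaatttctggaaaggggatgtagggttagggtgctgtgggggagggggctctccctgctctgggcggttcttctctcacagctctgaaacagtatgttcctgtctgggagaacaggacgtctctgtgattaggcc
Trem2: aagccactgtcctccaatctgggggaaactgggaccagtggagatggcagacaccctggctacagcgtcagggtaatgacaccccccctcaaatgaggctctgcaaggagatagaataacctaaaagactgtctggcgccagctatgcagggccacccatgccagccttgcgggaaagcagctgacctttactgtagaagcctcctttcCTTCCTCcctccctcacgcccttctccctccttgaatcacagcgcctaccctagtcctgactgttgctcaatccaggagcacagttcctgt
Aif1: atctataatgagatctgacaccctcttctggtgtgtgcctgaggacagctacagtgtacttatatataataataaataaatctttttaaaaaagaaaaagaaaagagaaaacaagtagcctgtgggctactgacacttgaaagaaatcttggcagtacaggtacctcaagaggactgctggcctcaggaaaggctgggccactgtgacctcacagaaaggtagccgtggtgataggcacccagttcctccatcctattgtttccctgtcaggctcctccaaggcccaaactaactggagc
C1qb: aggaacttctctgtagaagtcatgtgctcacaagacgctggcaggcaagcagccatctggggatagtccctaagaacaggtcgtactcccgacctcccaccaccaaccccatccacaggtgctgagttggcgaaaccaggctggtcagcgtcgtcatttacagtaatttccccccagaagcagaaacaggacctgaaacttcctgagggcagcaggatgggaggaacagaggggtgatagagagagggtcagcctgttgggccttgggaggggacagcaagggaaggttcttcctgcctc

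The PU.1 core began 7 bases before the start of Fcgr3 in the window printed and 16 bases before a second annotated start, 41 bases before that of Trem2 and 194 bases before that of C1qc. It was present in 3 of the 7 genes with a window (42.9%) and in 13.5% of the 27025 promoters of the same length. The composite site was in 0 of the 7 and in 2.79% of all promoters. These matches describe letters in the windows, and no match says only that these letters are not in the 300 bases searched.

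The values are RPKM, reads scaled to transcript length and to library size, so levels can be compared between genes per length. Depth was read from the smallest steps of the values. It came to 22.8 to 45.1 M reads (M, mega) in the miR libraries and 27.6 to 38.1 M reads in the PBS libraries. The PBS libraries fell into separate sets in the nuclear-retained RNAs named in earlier results. Meg3, a long noncoding RNA that stays in the nucleus, was at 49.9 to 68.1 RPKM in the 6 miR libraries, at 50.6 and 58.0 RPKM in PBS 7 and PBS 11, and at 158 to 316 RPKM in PBS 8, 9, 10 and 12. Leng8 and Snrnp70 divided the same libraries, with 33.6 to 39.5 and 72.8 to 89.8 RPKM in those 4 and at most 10.4 and 47.4 RPKM in the other 8. Several results moved with this division, and values with 1 or the other set of PBS libraries left out are given for them.

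The 10 genes together summed to 120 to 144 RPKM in the miR libraries and 107 to 139 RPKM in the PBS libraries. Of 10 genes that mark perivascular macrophages, 0 reached a mean of 1 RPKM, and they summed to 2.02 to 2.60 RPKM in miR mice and 1.63 to 3.51 RPKM in PBS. Of 16 genes of blood leukocytes, 0 reached 1 RPKM, and they summed to 0.436 to 2.26 RPKM in miR mice and 0.412 to 1.26 RPKM in PBS. T-cell Cd3e averaged 0.0146 RPKM, and the monocyte receptor Ccr2 averaged 0.0460 RPKM. Macrophage and blood-cell transcripts were thus low beside the microglial ones in every library of both groups.

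C1qb was the highest of the 10 genes, at a mean of 22.9 RPKM over the 12 libraries, and it exceeded C1qa (20.9 RPKM) in 12 of 12. C1qa, C1qc (20.3 RPKM) and Csf1r (20.3 RPKM) did not keep an order: C1qa exceeded C1qc in 6 of 12 libraries, and C1qc exceeded Csf1r in 5 of 12. P2ry12 followed at 11.6 RPKM, below Csf1r in 12 of 12 libraries, and Cx3cr1 at 10.6 RPKM, below P2ry12 in 10 of 12. Tmem119 averaged 7.82 RPKM, below Cx3cr1 and above Fcgr3 in 12 of 12 libraries. Fcgr3 averaged 4.77 RPKM, Trem2 4.45 RPKM and Aif1 3.67 RPKM, and the order held in 8 of 12 libraries between Fcgr3 and Trem2 and in 10 of 12 between Trem2 and Aif1. The genes that differed in the earlier results were therefore among the lowest of the set per length.

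**Figure D1:**
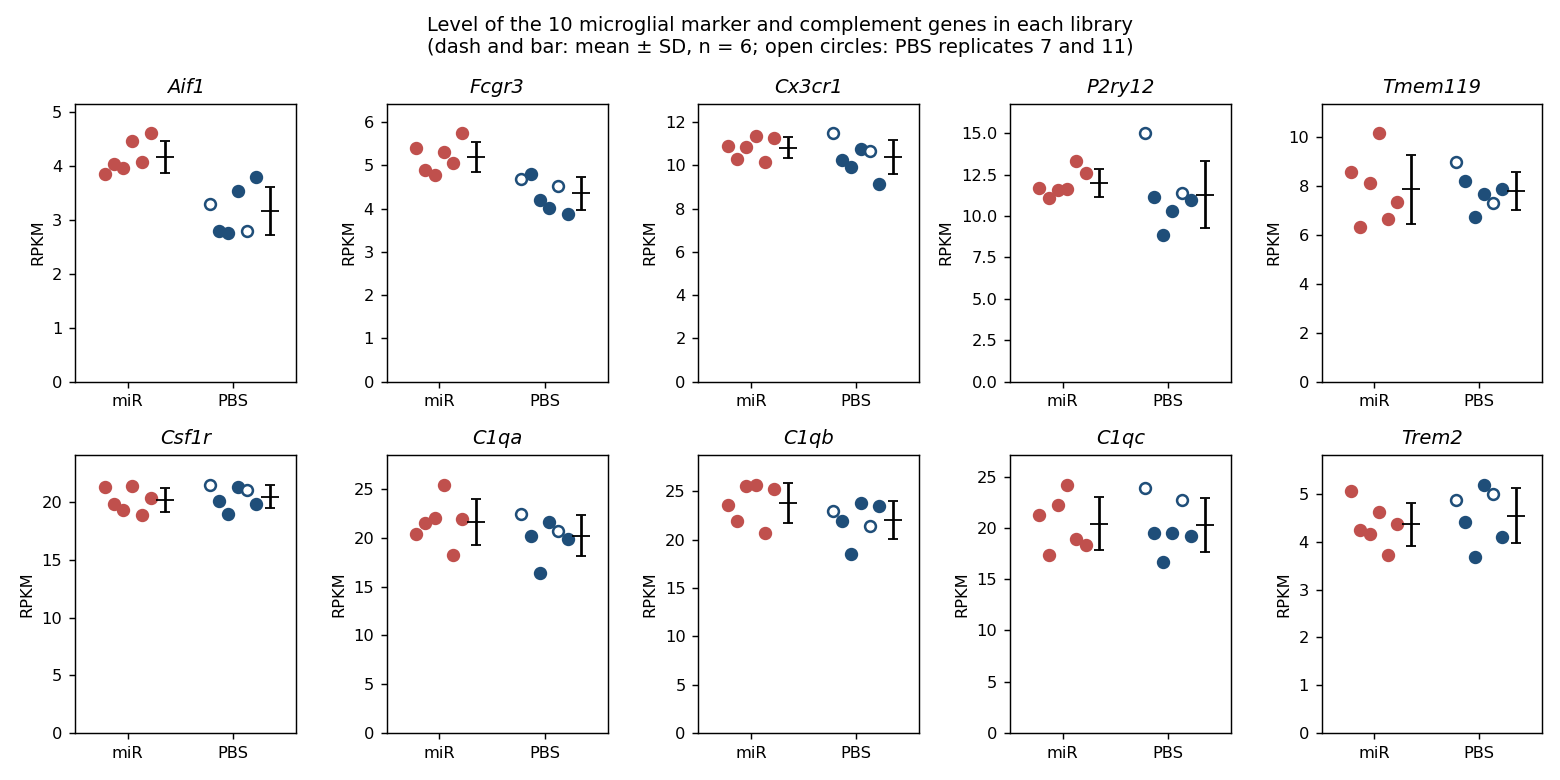
Level of each of the 10 genes in RPKM per library, miR libraries left of PBS libraries, with 1 point per mouse and the mean ± SD of each group (n = 6); open circles are PBS 7 and PBS 11. All 6 miR libraries lie above all 6 PBS libraries for Aif1 and 5 of 6 do for Fcgr3, while for the other 8 genes the groups overlap.

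Aif1 had 3.85, 4.06 and 4.61 RPKM as the lowest, median and highest of the miR libraries, against 2.75, 3.05 and 3.79 RPKM in the PBS libraries. Every miR library was above every PBS library, with the lowest miR and the highest PBS library close to each other. Aif1 averaged 4.17 ± 0.300 RPKM in miR mice and 3.17 ± 0.447 RPKM in PBS (SD, n = 6 each), a difference of 0.36 on the log2(RPKM + 0.5) scale. Aif1 lies at chr17:35307937-35312946 on the minus strand of build mm9. Its transcript of 875 bases collected an estimated 74.7 to 152 reads per library, and counting alone gives a SD of 0.148 on the log2 scale, beside 0.159 observed within groups. Counting error is thus about as large as all of the spread seen between mice of 1 group. The difference lay between 0.32 and 0.40 when any 1 library was left out, and it was 0.33 without PBS 7 and 11 and 0.40 without PBS 8, 9, 10 and 12. Over all tested genes, 0.256% had every miR library above every PBS library. Aif1 was picked for this pattern, so nothing is read from that share.

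Fcgr3 had 4.78, 5.18 and 5.74 RPKM as the lowest, median and highest of the miR libraries, against 3.88, 4.36 and 4.81 RPKM in the PBS libraries. In 5 of the 6 miR libraries it was above every PBS library, and miR 3 overlapped with PBS 8. It averaged 5.20 ± 0.353 RPKM in miR mice and 4.35 ± 0.378 RPKM in PBS (SD, n = 6 each), a log2 difference of 0.23. Fcgr3 lies at chr1:172981300-172989534 on the minus strand (mm9), and a median of 182 reads per library stood behind its value. Reads of Fcgr3 can be shared with its relative Fcgr2b, which is nearly identical in its extracellular part, and how such reads were counted is not stated in the labels. The log2 difference was 0.27 without PBS 7 and 11 and 0.16 without PBS 8, 9, 10 and 12, a change of over 1.5 times between the 2 sets.

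Relative to the mean log2 level of the 8 other genes in the same library, Aif1 stood at -1.71 to -1.44 in the miR libraries and at -2.07 to -1.60 in the PBS libraries. For Fcgr3 the same quantity was -1.40 to -1.15 in miR and -1.62 to -1.30 in PBS. The ranges overlap for both genes, and in both the miR libraries extend further up. In bulk tissue, a different number of microglia and a different amount of a transcript per microglial cell cannot be told apart.

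For none of the 8 genes that were not picked did the difference between miR and PBS mice pass the test. In limma's moderated test with Benjamini-Hochberg adjustment over 13273 genes, 0 of the 8 passed an adjusted p of 0.05 and 0 of 8 passed an unadjusted p of 0.05. Over all genes 0 passed the adjusted threshold (0%), the smallest adjusted p being 0.124, while 9.12% were higher and 11.1% lower in miR at an unadjusted p under 0.05. Of the 8 genes not picked, 5 had a positive and 3 a negative log2 difference, beside 52.9% positive over all tested genes. With Aif1 and Fcgr3, which were picked for being higher in miR, the count was 7 of 10. This count was 10 of 10 with PBS 7 and 11 left out or with library weights. It was 3 of 10 with PBS 8, 9, 10 and 12 left out or with the nuclear-retained RNAs as a covariate. The median log2 difference was 0.08 over the 10 genes, 0.03 over the 8 and 0.01 over all tested genes.

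Among the surface receptors, Csf1r had 18.9, 20.1 and 21.4 RPKM as the lowest, median and highest miR values, against 19.0, 20.6 and 21.5 RPKM in PBS. It averaged 20.2 ± 1.02 RPKM in miR mice and 20.5 ± 0.971 RPKM in PBS (SD, n = 6 each). This was the steadiest of the 10 genes, with a coefficient of variation of 4.72% over the 12 libraries and a highest value 1.14 times the lowest. A median of 2347 reads per library stood behind it. The limma log2 difference was -0.02 with a 95% interval of -0.12 to 0.08 (adjusted p = 0.826), the narrowest interval of the 8.

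Cx3cr1 had 10.2, 10.9 and 11.3 RPKM as the lowest, median and highest of the miR libraries, against 9.16, 10.5 and 11.5 RPKM in PBS, and its groups overlapped throughout. The log2 difference was 0.06 (95% interval -0.06 to 0.18, limma adjusted p = 0.552). Tmem119 had 6.31, 7.74 and 10.1 RPKM in miR mice, against 6.72, 7.78 and 8.96 RPKM in PBS. It averaged 7.85 ± 1.41 RPKM in miR mice and 7.78 ± 0.765 RPKM in PBS (SD, n = 6 each). Its log2 difference was -0.00046 (95% interval -0.22 to 0.21, limma adjusted p = 0.998). The miR libraries were thus the more widely spread for Tmem119, around the same centre.

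P2ry12 varied most among the PBS mice. It had 11.1, 11.7 and 13.3 RPKM as the lowest, median and highest of the miR libraries, against 8.88, 11.1 and 15.0 RPKM in the PBS libraries. Both the highest and the lowest of the 12 values were PBS libraries, PBS 7 and PBS 9. It averaged 12.0 ± 0.824 RPKM in miR mice and 11.3 ± 2.03 RPKM in PBS (SD, n = 6 each), and the log2 difference was 0.10 (95% interval -0.10 to 0.30, limma adjusted p = 0.549). Its level moved with the division of the PBS libraries: the mean was 13.2 RPKM in PBS 7 and 11 and 10.3 RPKM in PBS 8, 9, 10 and 12. With PBS 7 and 11 left out the log2 difference was 0.21 (95% interval 0.06 to 0.36) and passed, at an adjusted p of 0.0487 with limma, when 23.4% of all tested genes passed as well. With PBS 8, 9, 10 and 12 left out it was -0.12 (95% interval -0.35 to 0.10). Over 26 alternatives the adjusted p of P2ry12 ran from 0.0487 to 1, and the next lowest was 0.110. The part of the nuclear-retained RNAs in the level of P2ry12 was not tested.

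Trem2 had 3.71, 4.31 and 5.07 RPKM as the lowest, median and highest of the miR libraries, against 3.69, 4.64 and 5.19 RPKM in PBS. The groups overlapped over nearly their whole range. Trem2 averaged 4.36 ± 0.455 RPKM in miR mice and 4.54 ± 0.580 RPKM in PBS (SD, n = 6 each), with a log2 difference of -0.05 (95% interval -0.23 to 0.13, limma adjusted p = 0.752). A median of 143 reads per library gives a counting SD of 0.121 on the log2 scale, beside 0.171 observed within groups. Aif1 and Trem2, both on chromosome 17 and both among the lowest of the 10, were thus measured with similar precision.

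The C1q chains lie next to each other on chromosome 4 (mm9), C1qb at chr4:136436061-136442092, C1qc at chr4:136445717-136448829 and C1qa at chr4:136451831-136454759, all on the minus strand. C1qa had 18.3, 21.7 and 25.4 RPKM as the lowest, median and highest of the miR libraries, against 16.3, 20.4 and 22.5 RPKM in PBS. C1qb had 20.7, 24.4 and 25.7 RPKM in miR mice, against 18.5, 22.4 and 23.8 RPKM in PBS. C1qc had 17.4, 20.1 and 24.2 RPKM in miR mice, against 16.7, 19.5 and 24.0 RPKM in PBS. The groups overlapped for all 3 chains, and the lowest library for each was PBS 9.

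The log2 difference of C1qa was 0.09 (95% interval -0.08 to 0.27, limma adjusted p = 0.514) and that of C1qb was 0.11 (-0.04 to 0.26, adjusted p = 0.372). That of C1qc was 0.01 (-0.19 to 0.21, adjusted p = 0.957). The upper bounds leave room for an increase that these 12 libraries would not call. The size also depended on the processing. With a correction for GC content, added after seeing the data, the log2 difference was 0.234 for C1qa, 0.229 for C1qb and 0.129 for C1qc, and none passed. With PBS 8, 9, 10 and 12 left out it was lower than in the fit to all libraries, at -0.0049 for C1qa and 0.095 for C1qb. C1qc also moved with the division of the PBS libraries, at a mean of 23.3 RPKM in PBS 7 and 11 and 18.7 RPKM in the other 4. Its log2 difference was 0.11 without PBS 7 and 11 and -0.20 without PBS 8, 9, 10 and 12.

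**Figure D2:**
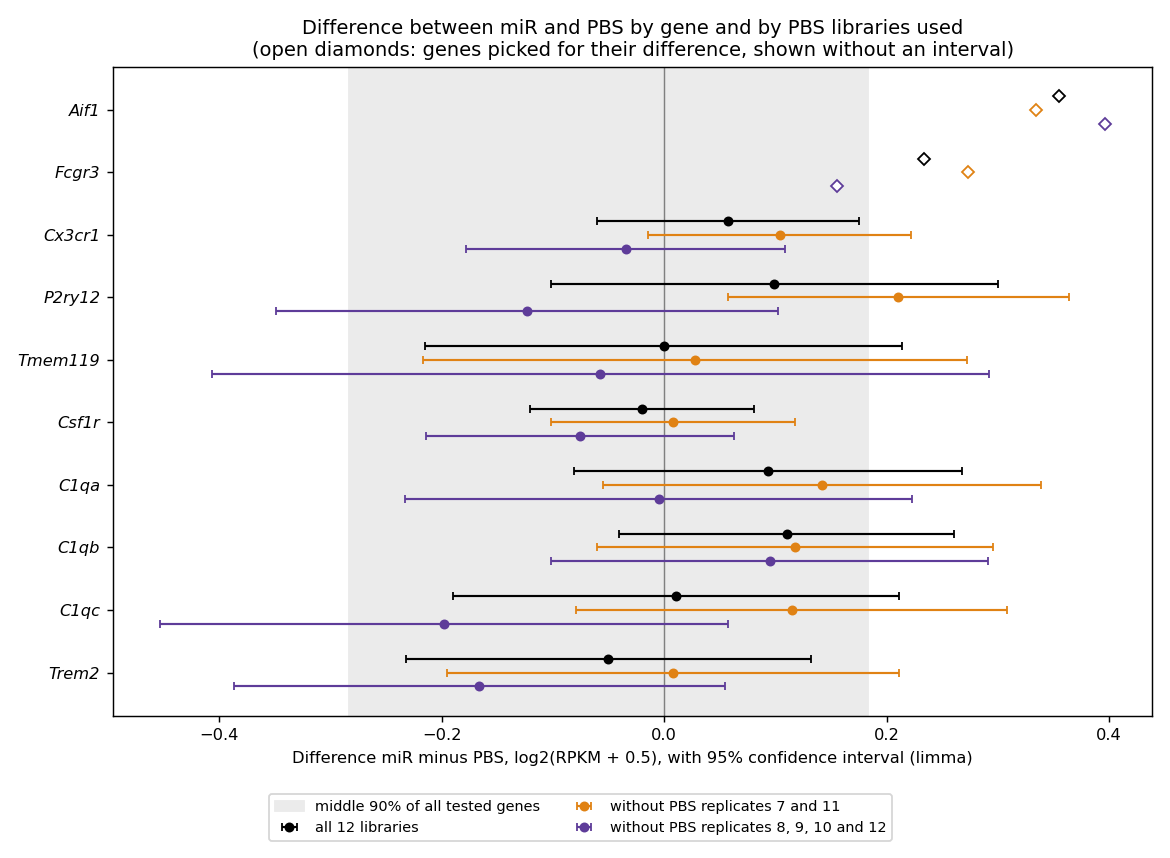
Log2 difference, miR minus PBS on the log2(RPKM + 0.5) scale, for each of the 10 genes over all 12 libraries and with either set of PBS libraries left out, with 95% intervals from limma except for Aif1 and Fcgr3 and a grey band for the middle 90% of all tested genes. The 8 intervals over all libraries cross 0, and P2ry12 moves between 0.21 without PBS 7 and 11 and -0.12 without PBS 8, 9, 10 and 12.

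The 10 genes were also compared with each other across mice. Over the 45 pairs the Pearson correlation of log2 levels in the 12 libraries had a median of 0.51, ranged from -0.06 to 0.94 and was positive in 44. These values are descriptions without a test, since the 12 points of every pair come from the same libraries. Among the 28 pairs of the 8 genes not picked, the median was 0.58 and all 28 were positive (0.21 to 0.94). For the 16 pairs that join Aif1 or Fcgr3 with 1 of the 8, the median was 0.24, and 15 were positive (-0.06 to 0.68). The median over the 28 pairs was 0.60 within the 6 miR libraries and 0.71 within the 6 PBS libraries, and 0.57 over all libraries but PBS 7 and 11. The mean standardised level of the 8 genes had r = -0.85 with a score of the nuclear-retained RNAs within the 6 PBS libraries and r = 0.47 within the 6 miR libraries, and the part of these RNAs in the covariation was not tested. PBS 9, which had the lowest value of several of the genes, carried part of it: without that library the median was 0.44 for the 28 pairs and 0.40 for all 45.

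Csf1r and Trem2 were the closest pair. Their Pearson r was 0.94 and Spearman's rho 0.867 over 12 libraries, and r was 0.93 within miR, 0.97 within PBS and 0.89 without the 2 libraries farthest from the median. Among the 13272 other tested genes, each was the one most highly correlated with the other. Csf1r also had 4 of the other 9 genes among its 100 most correlated genes. The survival receptor and the lipid receptor thus varied together from mouse to mouse in both groups.

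C1qa and C1qb had r = 0.85 and rho = 0.769, and r was 0.80 within miR, 0.88 within PBS and 0.64 without the 2 farthest libraries. C1qb was the 4th most correlated of 13272 genes for C1qa, and C1qa the 10th for C1qb. Tmem119 and C1qc had r = 0.80 and rho = 0.783, with 0.94 within miR and 0.66 within PBS. They ranked 24th and 27th for each other.

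P2ry12 stood apart from the other 7 unpicked genes. Its r with them was 0.21 to 0.53 over all 12 libraries and 0.54 to 0.90 within PBS, but -0.58 to -0.15 within miR, negative for 7 of 7. Among the miR libraries P2ry12 was highest in miR 5 (13.3 RPKM), where Cx3cr1, Csf1r, C1qa, C1qb and Trem2 had their lowest miR values. The 7 values of r share the same 6 libraries, and the part of miR 5 in their sign was not tested. Without PBS 7 and 9, the libraries with the highest and lowest P2ry12, r lay between -0.55 and -0.037 for 6 of the 7 and was 0.21 with Cx3cr1. For those 6 the positive sign was not seen without those libraries, which were left out together after their values were seen. Leaving out a gene's own extremes tends to lower r. Without the 2 libraries farthest from the median of the first gene, r was also negative for Csf1r with C1qb (-0.057) and C1qb with Trem2 (-0.20). This change of sign is thus not particular to P2ry12, and whether r differs between the groups was not tested. The member most correlated with P2ry12, C1qc, ranked 2131st.

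Aif1 and Fcgr3 had r = 0.54 over the 12 libraries and rho = 0.713. Within the groups r was 0.63 in miR and -0.64 in PBS, and it was -0.26 once group means were removed. The positive sign was thus seen over both groups together and within miR, and not within PBS. Both genes were picked for being higher in miR, which by itself favours a positive r over both groups together. Counting alone gives a SD of 0.148 for Aif1 and 0.104 for Fcgr3, beside 0.159 and 0.113 observed within groups. The values of r within groups therefore rest on little spread beyond counting error. With the mean standardised level of the 8 other genes, Aif1 had r = 0.32 and Fcgr3 r = 0.39, and 3214 and 2257 of the tested genes had a higher r.

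**Figure D3:**
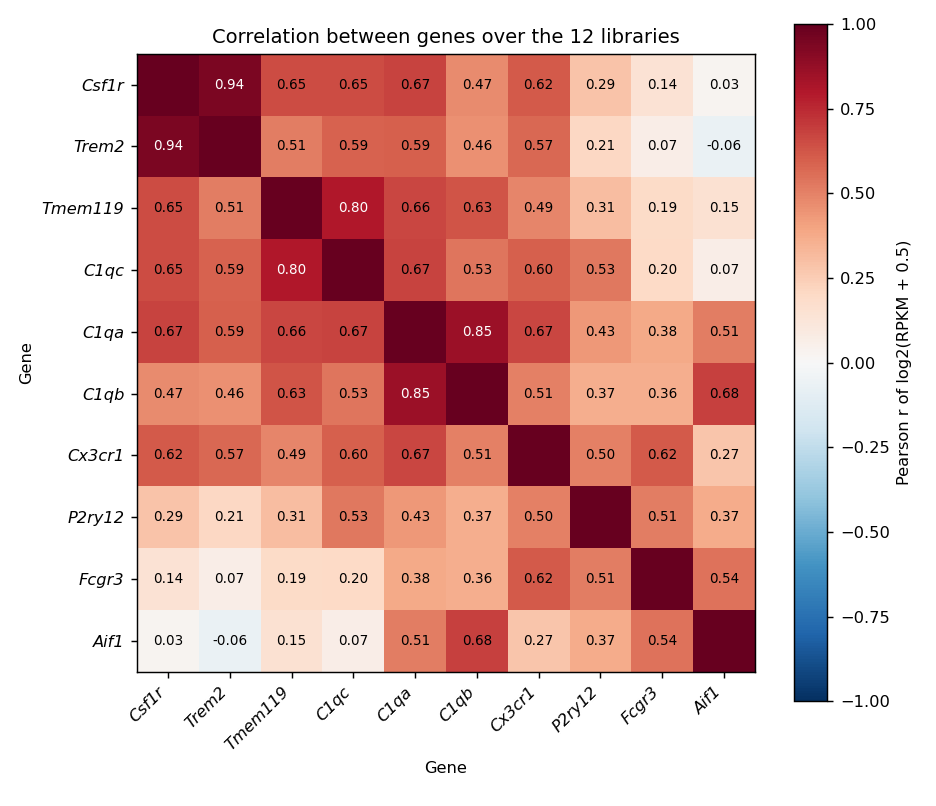
Pearson r of log2(RPKM + 0.5) over the 12 libraries for each pair of the 10 genes, with both axes listing the genes and colour running from -1 (blue) to 1 (red). Csf1r with Trem2 is the darkest pair at 0.94, followed by C1qa with C1qb at 0.85 and Tmem119 with C1qc at 0.80, and the rows of P2ry12, Fcgr3 and Aif1 are paler.

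The ratio of C1qa to C1qb was the steadiest of the ratios between C1q chains, and steadier than the level of either chain. C1qa over C1qb had a geometric mean of 0.910, ranged from 0.848 to 0.990 over the 12 libraries and varied with a SD of 0.083 on the log2 scale, while the chains' own levels varied with SDs of 0.158 for C1qa and 0.138 for C1qb. C1qc over C1qb had a geometric mean of 0.885, a range of 0.728 to 1.06 and a SD of 0.156. This SD lay between the 0.138 of C1qb and the 0.177 of C1qc. C1qa over C1qc had a geometric mean of 1.03, a range of 0.909 to 1.235 and a SD of 0.136, below that of either chain. The log2 ratio of C1qa to C1qb was -0.14 ± 0.094 in miR and -0.13 ± 0.077 in PBS (SD, n = 6 each), and that of C1qc to C1qb was -0.23 ± 0.142 in miR and -0.12 ± 0.164 in PBS. C1qb was the highest chain in 10 of 12 libraries. In PBS 7 and PBS 11, the PBS libraries low in Meg3, C1qc was the highest, at 1.04 and 1.06 times C1qb, against 0.728 to 0.943 times in the other 10 libraries.

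**Figure D4:**
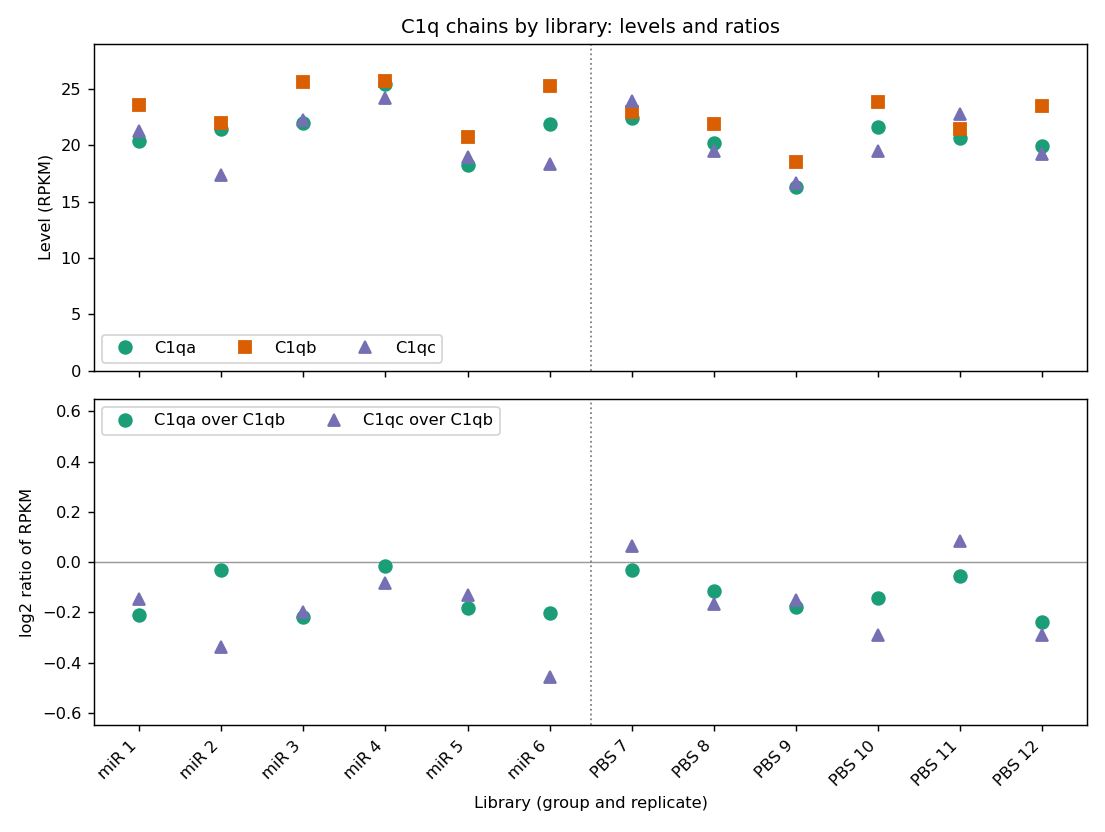
Levels of the C1q chains in RPKM per library and the log2 ratios of C1qa and C1qc to C1qb, miR libraries left of PBS libraries. C1qb is the highest chain except in PBS 7 and PBS 11, and the ratio of C1qc to C1qb spreads more widely than that of C1qa to C1qb.

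The rest of the microglial programme was read from lists of genes chosen with earlier results known. Some genes are in more than 1 list. Fcer1g is also in the Fc receptor list, Tyrobp also in the TREM2 list, and Csf1 in the ligand and TREM2 lists. Counts of different lists are therefore not separate observations. Of 48 other microglial and myeloid genes in the table, 40 reached a mean of 1 RPKM, and 0 of the 40 passed an adjusted p of 0.05. In the fit to all libraries 31 of 40 had a positive log2 difference, beside 52.9% of all tested genes, with a median of 0.04. At an unadjusted limma p under 0.05, 7 of 40 (17.5%) were higher and 0 lower in miR, beside 9.12% and 11.1% of all genes. The 31 became 17 of 40 with PBS 8, 9, 10 and 12 left out, and also with the nuclear-retained RNAs as a covariate. Ctss, the lysosomal protease cathepsin S, averaged 41.8 ± 3.33 RPKM in miR mice and 35.4 ± 3.02 RPKM in PBS (SD, n = 6 each), with a log2 difference of 0.24 (limma adjusted p = 0.174). Lgmn, the lysosomal protease legumain and the highest of the list, averaged 75.8 ± 3.83 RPKM in miR mice and 73.7 ± 4.11 RPKM in PBS, with a log2 difference of 0.04 (adjusted p = 0.658). With PBS 7 left out Ctss passed, at an adjusted p of 0.0361, as did 6.85% of all tested genes, and with PBS 11 left out 3.23% of all genes passed but Ctss did not. Over 26 alternatives the adjusted p ran from 0.00855 to 1 for Ctss, and with PBS 8, 9, 10 and 12 left out its log2 difference was 0.12. With PBS 7 and 11 both left out 6 of the 40 passed, all higher in miR, when 23.4% of all tested genes passed in either direction.

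Of 5 other Fc receptor genes, 3 were tested and 0 passed. Fcer1g, the signalling chain that Fcgr3 needs at the cell surface, averaged 6.28 ± 0.700 RPKM in miR mice and 5.26 ± 0.633 RPKM in PBS (SD, n = 6 each), with a log2 difference of 0.24 (limma adjusted p = 0.186). Fcgr2b, the inhibitory receptor, averaged 1.73 ± 0.246 RPKM in miR mice and 1.37 ± 0.272 RPKM in PBS, with a log2 difference of 0.26 (adjusted p = 0.212). Fcgrt, the neonatal receptor that recycles antibody, averaged 4.37 ± 0.330 RPKM in miR mice and 4.79 ± 0.520 RPKM in PBS, with a log2 difference of -0.12 (adjusted p = 0.348). Fcgr1 and Fcgr4 averaged 0.951 and 0.0743 RPKM over the 12 libraries and were not tested. The activating chain and the inhibitory receptor thus had higher means in miR, without passing the test. Fcgr3 adds no support to this direction, since it was picked for being higher in miR and can share reads with Fcgr2b. With PBS 7 and 11 left out the log2 difference was 0.16 for Fcer1g, 0.23 for Fcgr2b and -0.16 for Fcgrt, and with the other 4 PBS libraries left out it was 0.39, 0.31 and -0.028.

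Among the ligands, Il34, which acts on Csf1r, averaged 11.7 ± 0.811 RPKM in miR mice and 13.7 ± 1.89 RPKM in PBS (SD, n = 6 each), with a log2 difference of -0.21 (limma adjusted p = 0.205). Cx3cl1, the fractalkine that binds Cx3cr1, averaged 72.1 ± 7.62 RPKM in miR mice and 80.3 ± 8.29 RPKM in PBS, with a log2 difference of -0.15 (adjusted p = 0.275). All 4 ligands tested, with Csf1 and Tgfb1, had a negative log2 difference in the fit to all libraries, where 52.9% of all tested genes had a positive one. The count was 3 of 4 with library weights, with the nuclear-retained RNAs as a covariate, with PBS 8, 9, 10 and 12 left out or with GC correction. Over all libraries 0 of 4 passed. Il34 passed with PBS 7 and 11 left out, at a log2 difference of -0.29 (adjusted p = 0.0169), the lowest over its 26 alternatives, of which the highest gave 1. Of all tested genes 23.4% passed with those libraries left out. With PBS 8, 9, 10 and 12 left out the log2 difference was -0.046 for Il34 and -0.0055 for Cx3cl1, and with PBS 7 and 11 left out that of Cx3cl1 was -0.23.

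Of 17 genes of TREM2 signalling and of the lipid-handling state that microglia take up in disease, 12 were tested and 0 passed, with a median log2 difference of 0.04. Tyrobp, the adaptor of Trem2, averaged 15.6 ± 1.29 RPKM in miR mice and 13.8 ± 1.76 RPKM in PBS (SD, n = 6 each), with a log2 difference of 0.18 (limma adjusted p = 0.234). Cd9, a tetraspanin that astrocytes and oligodendrocytes also make, averaged 35.7 ± 2.07 RPKM in miR mice and 31.4 ± 4.57 RPKM in PBS, with a log2 difference of 0.19 (adjusted p = 0.218). Without PBS 7 Cd9 passed, at 0.26 (adjusted p = 0.0348), as did 6.85% of all tested genes, and over 26 alternatives the adjusted p of Cd9 ran from 0.00978 to 1. With PBS 7 and 11 left out Tyrobp also passed, at 0.24 (adjusted p = 0.0322, in a range of 0.0322 to 1), when 23.4% of all tested genes passed. With PBS 8, 9, 10 and 12 left out the log2 difference was 0.0044 for Cd9 and 0.042 for Tyrobp. Apoe, the lipid carrier, was the highest at 1063 ± 121 RPKM in miR mice and 1045 ± 137 RPKM in PBS, and Ctsd, cathepsin D, averaged 210 ± 11.9 RPKM in miR mice and 215 ± 25.5 RPKM in PBS. Of the 5 genes of this list below the filter, Clec7a, Cst7 and Itgax were the lowest, at 0.0496, 0.0409 and 0.0314 RPKM. Other genes of the same list were above it. Axl averaged 10.2 RPKM in miR mice and 9.55 RPKM in PBS, Lpl 2.03 and 1.86 RPKM, and Spp1 1.10 and 1.30 RPKM. Of 16 genes of inflammatory activation 1 was tested, Cd74, the invariant chain of antigen presentation. It averaged 1.31 ± 0.194 RPKM in miR mice and 1.81 ± 0.595 RPKM in PBS, with a log2 difference of -0.32 (adjusted p = 0.246), which was -0.45 with PBS 7 and 11 left out and -0.067 with the other 4 PBS libraries left out. The cytokines Il1b, Tnf and Il6 averaged 0.0450, 0.0128 and 0.0240 RPKM.

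The list of other complement genes, which also holds related genes such as the C1q-like ones, was divided in direction. Of 43 measured genes 23 were tested and 0 passed. The log2 difference was positive in 11 and negative in 12, beside 52.9% positive over all tested genes. At an unadjusted limma p under 0.05, 4 of 23 (17.4%) were lower and 0 higher in miR, beside 11.1% and 9.12% of all genes. The 4 were Cfp, Vtn, Sez6 and the C1q-like gene C1ql2, so the share describes this list and not the complement cascade alone. Cfp, properdin of the alternative pathway, averaged 1.25 ± 0.245 RPKM in miR mice and 3.43 ± 1.75 RPKM in PBS (SD, n = 6 each), with a log2 difference of -1.01 (limma adjusted p = 0.174). Vtn, vitronectin, an inhibitor of the terminal complex, averaged 11.4 ± 0.898 RPKM in miR mice and 17.0 ± 4.98 RPKM in PBS, with a log2 difference of -0.50 (adjusted p = 0.174). Both were wide in PBS, at 1.15 to 4.97 RPKM for Cfp and 10.8 to 22.7 RPKM for Vtn, and with PBS 8, 9, 10 and 12 left out the log2 difference was 0.02 for Cfp and -0.023 for Vtn. Without PBS 7, when 6.85% of all tested genes passed, both passed, at log2 differences of -1.23 for Cfp (adjusted p = 0.0243) and -0.62 for Vtn (0.0263). Without PBS 11, when 3.23% of all tested genes passed, Cfp also passed (-1.21, adjusted p = 0.0361). Over their alternatives the adjusted p ran from 4.026e-06 to 1 for Cfp and from 0.000653 to 1 for Vtn. Clu, clusterin, and Susd4, a complement inhibitor, were the highest, at 434 ± 22.9 and 43.2 ± 1.92 RPKM in miR mice and 426 ± 26.5 and 44.9 ± 2.38 RPKM in PBS. C3, the centre of the cascade, averaged 0.563 RPKM and was not tested, and C9 of the terminal complex was listed at 0 in all 12 libraries.

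Markers of other cells of the tissue also differed in mean between the groups. All 8 astrocyte genes had a positive log2 difference over all libraries (median 0.17), beside 52.9% of all tested genes. The count was 4 of 8 with PBS 8, 9, 10 and 12 left out or with the nuclear-retained RNAs as a covariate. The 8 astrocyte genes summed to 988 to 1123 RPKM in miR mice and 820 to 1035 RPKM in PBS. Gjb6, the astrocyte connexin 30, averaged 32.8 ± 1.36 RPKM in miR mice and 28.7 ± 1.10 RPKM in PBS (SD, n = 6 each), with a log2 difference of 0.19 (limma adjusted p = 0.174). Its 6 miR libraries, at 31.3 to 34.4 RPKM, lay above its 6 PBS libraries, at 27.6 to 30.5 RPKM, as in 0.256% of all tested genes. Aqp4, the water channel of astrocyte endfeet, averaged 28.6 ± 2.26 RPKM in miR mice and 23.6 ± 4.09 RPKM in PBS, with a log2 difference of 0.28 (adjusted p = 0.179). Gjb6 passed without PBS 7 (adjusted p = 0.0255) and without PBS 11 (0.0389), and Aqp4 passed without PBS 11 (0.0474). Of all tested genes 6.85% passed without PBS 7 and 3.23% without PBS 11. With PBS 8, 9, 10 and 12 left out the log2 difference was 0.13 for Gjb6 and 0.029 for Aqp4, and with the nuclear-retained RNAs as a covariate it was 0.13 and 0.055. Their adjusted p ran from 0.00406 to 1 for Gjb6 and from 0.00503 to 1 for Aqp4 over 26 alternatives. Gjb6 and Aqp4 had the smallest unadjusted p of the 8 astrocyte genes. Over all libraries the log2 difference was 0.19 for Slc1a3, 0.18 for Gja1 and 0.15 for Slc1a2. It was 0.09 for Gfap, 0.09 for Aldoc, the highest in level, and 0.07 for Aldh1l1. The limma adjusted p of these genes ran from 0.186 for Slc1a3 to 0.786 for Gfap. Oligodendrocyte markers summed to 544 to 889 RPKM in miR mice and 384 to 1397 RPKM in PBS, and endothelial markers to 27.3 to 36.0 RPKM in miR mice and 31.6 to 41.6 RPKM in PBS. All 6 oligodendrocyte genes had a positive log2 difference over all libraries (median 0.19), and all 6 endothelial genes a negative one (median -0.13). With PBS 8, 9, 10 and 12 left out it was positive in 1 of 6 oligodendrocyte and 1 of 6 endothelial genes. The part of these other cell types in the levels of Aif1 and Fcgr3 was not tested.

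**Figure D5:**
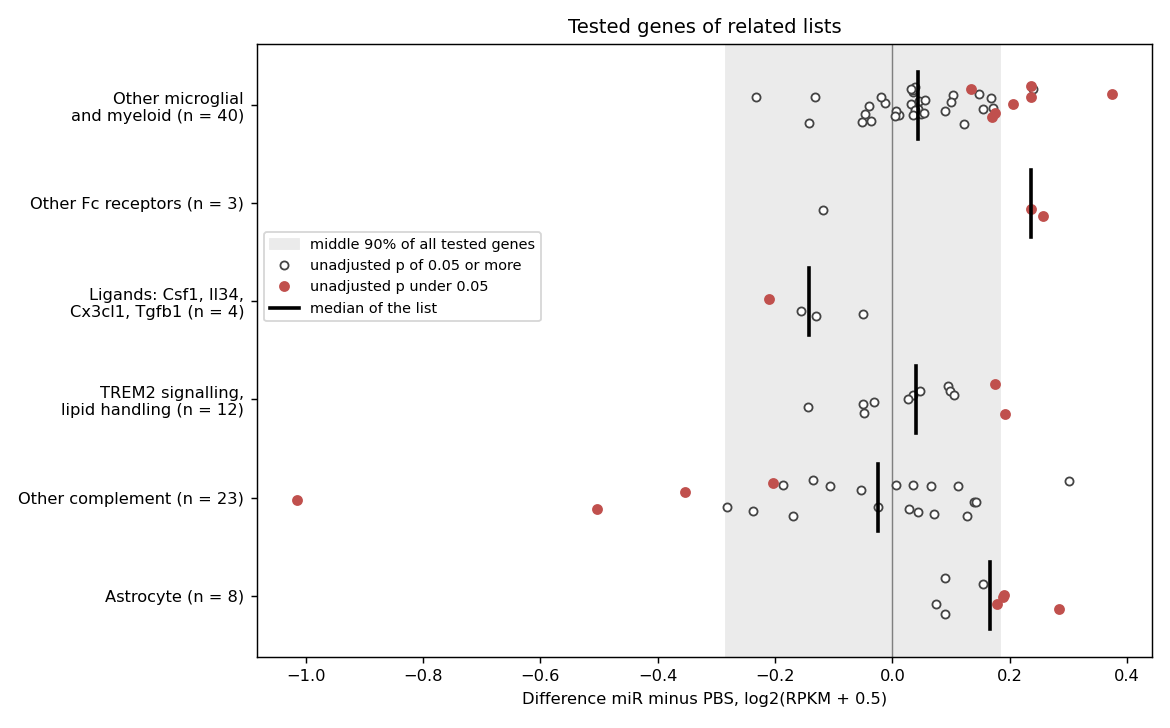
Log2 difference, miR minus PBS, of the tested genes of each list, with 1 point per gene and a bar at the list's median. The other microglial genes centre on 0.04 and the astrocyte genes on 0.17, beside 0.01 for all tested genes, but on -0.03 and 0.01 with PBS 8, 9, 10 and 12 left out. Filled points have an unadjusted p under 0.05, 0 genes of these lists pass an adjusted p of 0.05, and the grey band holds the middle 90% of all tested genes.

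The likeness of other genes to the 8 unpicked genes was measured by Pearson r over the 12 libraries with their mean standardised level. The 8 most alike of the other tested genes were Mgat3 (r = 0.904), Agtrap (0.887), Mon1b (0.876), Abcb10 (0.874), 5930403L14Rik (0.867), Fads2 (0.853), Fam168b (0.853) and Zc3h7b (0.848). None of these 8 is in the lists of cell markers used here, and over the alternatives tried their r lay between 0.603 and 0.952. Mgat3, a glycosyltransferase, had 33.5 ± 1.85 RPKM in miR mice and 33.2 ± 2.09 RPKM in PBS (SD, n = 6 each), so that its levels also overlapped between groups. Of the 40 other microglial genes tested, 23 had r above 0.5, beside 8.70% of all tested genes, and 11 were among the 500 genes of highest r. Their median r was 0.513, against 0.105 over all tested genes. The mean level of the 8 genes itself was highest in miR 4 and PBS 7 and lowest in PBS 9.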

How the data were processed

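Poly-A RNA of 12 PVN punches, 6 miR and 6 PBS, was sequenced over 2 lanes. The authors deposited RPKM, as their table is titled, for 30399 RefSeq transcripts with coordinates. The submitters' processing notes name edgeR and mm9 without a role, and neither the aligner nor the scaling of the libraries is stated there. For each of 23256 genes the row of highest mean was kept; 913 rows had no symbol, and 868 of these are named by accession. The 13273 genes that averaged 1 RPKM or more over all libraries were fitted as log2(RPKM + 0.5) with limma 3.58.1 (R 4.3.3; variance trend, 2-sided, Benjamini-Hochberg over all tested genes, threshold 0.05), a script tested on simulated data. Log2 differences on this scale understate changes of low genes. Depth came from the smallest steps of low, intronless genes, and reads behind a value are estimates; counting errors cover counting only. Correlations carry no p. Python 3.11.15 was used for tables and figures.

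The genes and lists were chosen with earlier results of these data known. Beside the 10 genes, the text names the 8 genes most correlated with the 8 unpicked ones, and Meg3, Leng8, Snrnp70, Gjb6 and Aqp4. From each list of microglial, ligand, Fc receptor, TREM2, complement and inflammatory genes it names the 2 tested genes of smallest p and the 2 of highest level. This rule was not applied to the lists of other cell types, and Gjb6 and Aqp4 are the 2 astrocyte genes of smallest p. Single untested list members, Csf1, Tgfb1, Axl, Lpl, Spp1, Sez6, C1ql2, Spi1 and the astrocyte genes other than Gjb6 and Aqp4 are named outside that rule, chosen after their values were seen. Lists of neurons, precursors, mural and choroid cells are left out, and 1 gene that the rule names is not reported here. Alternatives were other pseudocounts, filters and scalings, the mean over a gene's rows, other variance settings, library weights, the nuclear-retained RNA score as covariate and libraries left out. Leaving out PBS 8, 9, 10 and 12, a correction for GC content in 20 bins, and leaving out PBS 7 and 9 for the correlations of P2ry12, were added after seeing the data.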

Additional observations from a re-analysis of the deposited data

Results flagged for a closer look

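Of 84 groups of 6 libraries examined, 2 had a library far from the rest of its group, where chance alone gives about 1 in 20 groups (4.2 of 84). Ctss, the microglial cathepsin S, was at 48.3 RPKM in miR 6, with the next highest miR library at 41.8 and the lowest at 39.0 RPKM, so that the gap made 0.703 of the group's range against a critical value of 0.625. Meg3, the nuclear-retained RNA, was at 68.1 RPKM in miR 6, with the next highest at 55.1 and the lowest at 49.9 RPKM, a gap of 0.719 of the range. Both came from the same library, miR 6, which also had the highest Aif1 and Fcgr3 of all 12 and the lowest depth. Without miR 6 the log2 difference was 0.33 for Aif1 and 0.21 for Fcgr3. None of the 10 genes had such a library in either group.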

How the results depend on the processing

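The log2 differences of Aif1 and Fcgr3 stayed positive under every alternative that tested them (a filter at a mean of 5 RPKM drops both, and Trem2). Both were picked for this sign in the same libraries, so its persistence is a description and not a test. Those of C1qb also stayed positive, with limma adjusted p from 0.286 to 1. Over all tested genes the count past the adjusted threshold was 0, 3025 with library weights and 3107 with PBS 7 and 11 left out, and leaving out 1 library gave 0 to 909 (909 without PBS 7, 429 without PBS 11, 1 without miR 3). For the 8 unpicked genes the count was 0, and 1 (P2ry12) with PBS 7 and 11 left out. The number of the 10 genes higher in miR was 7, with the picked Aif1 and Fcgr3 among them in this and every count that follows. It was 10 with library weights or with PBS 7 and 11 left out, and 9 with GC correction. It was 3 with the nuclear-retained RNA score as covariate, 3 with PBS 8, 9, 10 and 12 left out, and 6 to 8 with 1 library left out. The median r over the 45 pairs was 0.400 to 0.549 with 1 library left out.

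Signs turned as follows, in log2 difference, and apart from the construction of each setting the cause was not tested. With the score as covariate: Apoe -0.14, C1qa -0.034, C1qc -0.21, Cd9 -0.022, Clu -0.012, Cx3cr1 -0.035, Lgmn -0.012, P2ry12 -0.15. With PBS 8, 9, 10 and 12 left out: Apoe -0.15, C1qa -0.0049, C1qc -0.20, Cfp 0.020, Ctsd 0.034, Cx3cr1 -0.035, P2ry12 -0.12. With GC correction: Csf1r 0.030, Ctsd 0.045, P2ry12 -0.032, Tmem119 0.14, Trem2 0.069. With PBS 7 and 11 left out: Csf1r 0.0081, Tmem119 0.028, Trem2 0.0079. With library weights: Clu -0.013, Csf1r 0.00867, Tmem119 0.031, Trem2 0.0041. Tmem119 was 0.015 with median scaling, 0.021 with quantile normalization and 0.000155 with a pseudocount of 1, and Clu was -0.020 with quantile normalization. With 1 library left out, C1qc ran from -0.042 to 0.060, Tmem119 from -0.074 to 0.055, Apoe from -0.029 to 0.084 and Ctsd from -0.079 to 0.012.

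No paired analysis was possible because the miR mice carry replicate numbers 1 to 6 and the PBS mice 7 to 12, with none shared. Depth limits Aif1, Trem2 and Fcgr3 most.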
